A study of Mus musculus with 6 samples.

Results

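The genes described here are 33 microglia and macrophage genes, read in bulk RNA from newborn mouse striatum. They were chosen by symbol, as the rows whose Ensembl identifier carries one of 33 listed names, and all 33 were found among the 47062 genes of the deposited table. RNA came from the striatum with its subventricular zone at postnatal day 0, from mice of mixed C57BL/6J, 129S6 and CD1 background. The 3 control libraries came from Sp9Flox/Flox littermate controls, and the 3 mutant libraries from Drd2-Cre;Sp9Flox/Flox animals. Every animal thus carried floxed Sp9, a zinc finger transcription factor gene, and Cre was under control of Drd2, the D2-type dopamine receptor gene, which marks striatopallidal neurons and is not aimed at microglia. No group carried Drd2-Cre without the floxed alleles, so the deletion and the transgene cannot be told apart. Whether each library is 1 animal is not in the labels; the p-values then reflect only how far these libraries scatter, which may be technical.

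Microglia are the resident macrophages of brain tissue. They derive from yolk sac progenitors that enter the embryonic brain, depend on the receptor encoded by Csf1r for survival, and are directed by the transcription factor PU.1, the product of Spi1. Around birth they clear dying cells and surplus processes, using complement C1q, the TREM2 receptor with its adaptor TYROBP, Fc receptors and lysosomal proteases. Border macrophages of the meninges and perivascular spaces share many of these genes and are marked by Mrc1.

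Depth ranged from 16237045 to 19457776 fragments in genes per library, worked out from the deposited count columns. The targeted gene Sp9 read 20.1, 19.0 and 17.3 FPKM (fragments scaled to transcript length and library size) in controls 1, 2 and 3 and 8.37, 7.93 and 9.67 in mutants 1, 2 and 3, an order kept for all values below. Its log2 fold change was -1.08 ± 0.09 (SE) with a limma adjusted p of 0.0567, and -1.32 with an adjusted p of 0.00635 on the deposited count columns. The 8 striatal neuron markers summed to 1163, 1166 and 1217 FPKM in controls and 1113, 1054 and 1050 in mutants. Of 10 lymphocyte and mast cell markers, 4 were at 0 in every library, Cd3g among them, and their summed level was at most 0.474 FPKM.

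The members were read at a low level, and their sum does not separate microglia from other macrophages. Together the 33 genes took 1301, 1256 and 1027 fragments in the controls and 1375, 1580 and 1321 in the mutants. Per 100000 fragments in genes this was 7.17, 6.76 and 6.09 against 7.10, 8.12 and 8.14, with 95% Wilson intervals of 6.79 to 7.57, 6.40 to 7.14 and 5.72 to 6.47 in the controls and 6.73 to 7.48, 7.73 to 8.53 and 7.71 to 8.59 in the mutants. These intervals cover counting error only. Control 1 and mutant 1 had nearly the same share, so the groups overlapped on this measure. Summed FPKM was 47.7, 49.1 and 45.5 in the controls and 51.1, 57.7 and 55.3 in the mutants, without overlap. The means were 47.4 ± 1.80 and 54.7 ± 3.37 (SD, n = 3 each). These sums were not scaled to the FPKM total over all genes, which ran from 1295150 in mutant 2 to 1729930 in control 3. Summed over the deposited count columns, the members gave 1370, 1297 and 1173 against 1343, 1532 and 1523, with overlap. In bulk tissue a larger number of cells of a type and more RNA per cell cannot be told apart.

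Levels spanned a wide range. By mean FPKM over the 6 libraries, the highest members were Aif1 (6.38), which encodes the calcium-binding protein IBA1, Tyrobp (4.13), the lysosomal glycoprotein gene Cd68 (3.54), Laptm5 (3.15) and Ctss (3.04). Csf1r, the 3 C1q genes, Cx3cr1 and Cyba followed between 2.56 and 2.84, a range narrower than the spread between libraries of C1qb or Cyba. The median member was at 1.05 FPKM, against 9.87 for the 16666 genes tested. The lowest were Cd14 (0.0893) and Cybb (0.0363), each with 0 fragments in control 3, which allows up to 0.123 and 0.0398 FPKM there at 3 fragments. Only Csf1r and Cx3cr1 had over 100 fragments in every library, and 7 members had a library with fewer than 10.

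**Figure D1:**
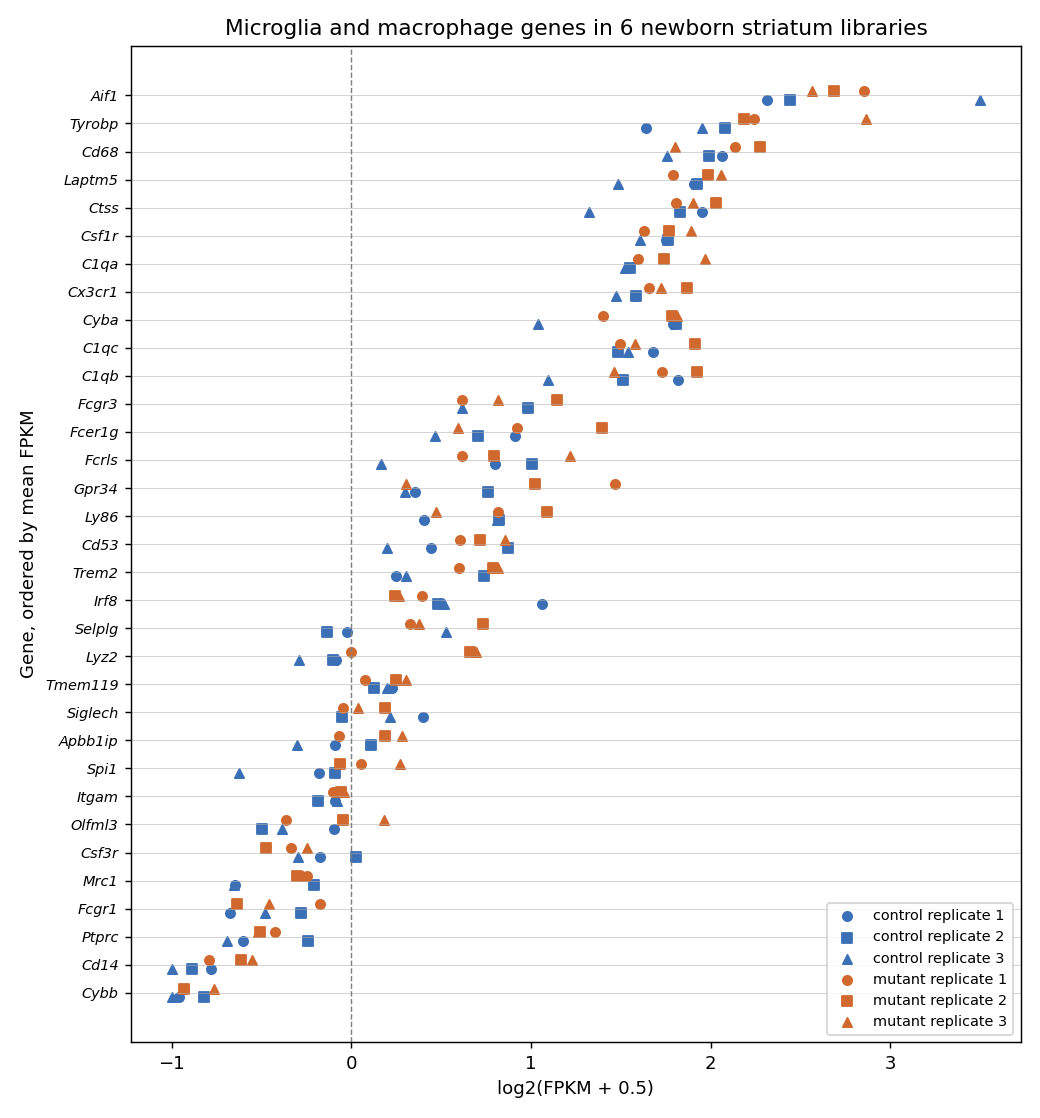
Level of each of the 33 genes as log2(FPKM + 0.5), ordered by mean FPKM, with 1 point per library (blue, control; orange, mutant; circle, square and triangle for replicates 1, 2 and 3). The points of the 2 groups interleave for most genes; Aif1 in control replicate 3, at 10.8 FPKM, is the highest point of the plot.

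No member passed the test between mutant and control. Of the 33 genes, 24 had a mean FPKM of at least 0.5 and were tested; none had an adjusted p under 0.05 in the limma fit on FPKM, in which 0.06% of all genes did. At an unadjusted p under 0.05, 1 member was higher, Lyz2, against 2.65% of all genes, and 0 were lower, against 2.99%. On the scaled counts (the deposited count columns, fragments times a factor per library), limma again called 0 of 30 members, against 0.143% of all genes. There 4 were higher (Selplg, Cd68, Lyz2 and Mrc1) and 1 was lower (Irf8) before adjustment, against 3.24% and 3.19% of all genes. On that scale 26 of the 30 estimates were above 0, against 49.6%, and 6 members were higher and 1 lower without overlap, against 5.46% and 6.49%. The direction on FPKM was uneven: 21 of the 24 estimates were above 0, against 49.9% of all genes. The median log2 fold change was 0.21, against -0.000157 over all genes. These counts were not tested. The members were chosen with earlier results of these data known and were read in the same libraries, so their signs are not separate observations. Over all 33 genes, in a fit without the filter on level (0.0533% of all genes called, no member), 29 estimates were above 0, against 50.4% of all genes, and the median was 0.20. In that fit Lyz2 and Cd14 were higher at an unadjusted p under 0.05, against 2.43% of all genes, and none was lower, against 2.52%. The median was 0.08 without control 3, with 20 of 25 tested estimates above 0, and 0.12 without mutant 2, with 17 of 23. For scaled counts the median of 0.26 became 0.18 without control 3, with 25 estimates above 0, and 0.15 without mutant 2, with 24. Groups did not overlap in FPKM for 4 members that were higher and 1 that was lower among those tested, against 5.33% and 6.05% of all genes. Spi1, under the filter, was also higher without overlap, so that 5 of all 33 were higher and 1 lower, against 4.59% and 4.92% of all genes without the filter. Precision was limited: on FPKM the 95% interval of a member reached 0.49 to each side at the median, against 0.28 for all genes tested. For 9 of the 24 that interval lay within a 1.5-fold change either way. On scaled counts the intervals of C1qa, Fcgr3, Tmem119, Siglech and Cd68, which are among those 9, reached beyond it.

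**Figure D2:**
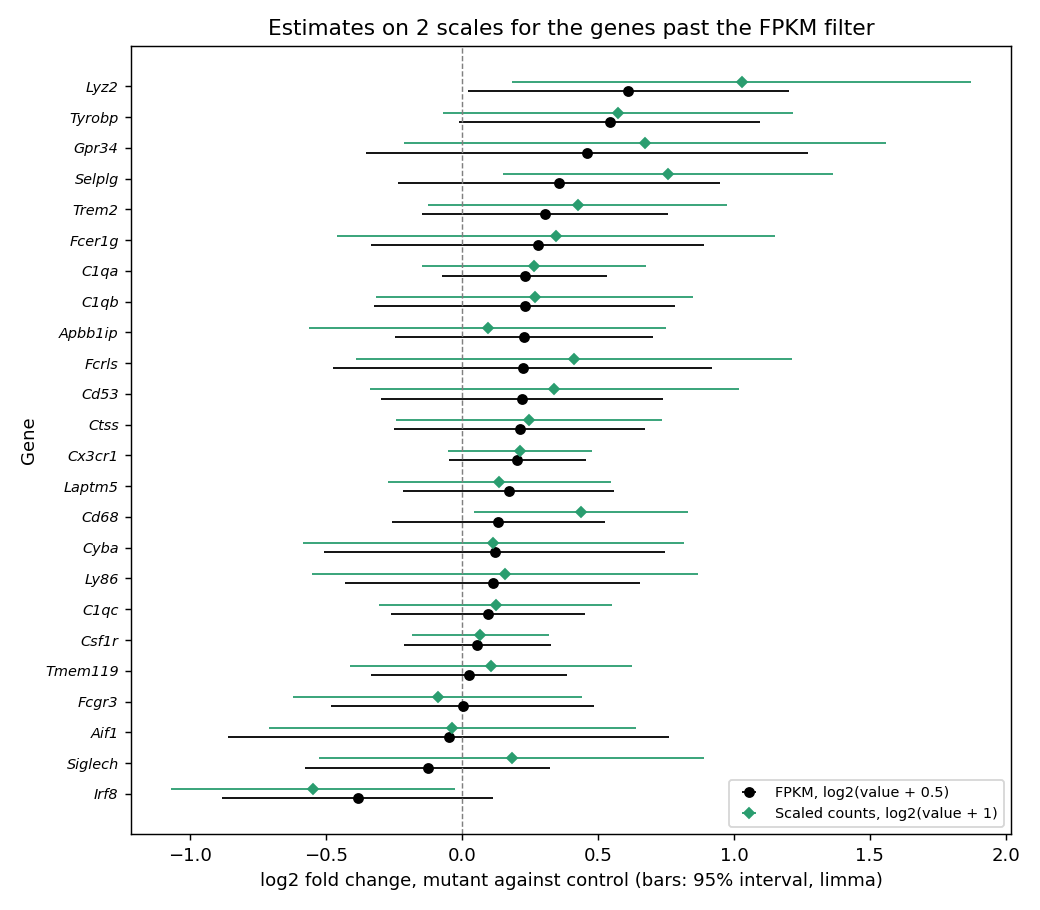
Log2 fold change of mutant against control with its 95% interval from limma, for the 24 members with a mean FPKM of at least 0.5, from FPKM (circles) and from scaled counts (diamonds). Most estimates lie above 0; the FPKM interval excludes 0 only for Lyz2, and on scaled counts Lyz2, Selplg and Cd68 lie above 0 and Irf8 below it.

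The complement genes C1qa, C1qb and C1qc encode the 3 chains of C1q, which starts the classical complement pathway and tags material for uptake. They lie side by side on GRCm38 chromosome 4, on the minus strand, with gaps of 3.62 and 2.85 kb: C1qb (ENSMUSG00000036905) at 136880129 to 136886187, C1qc (ENSMUSG00000036896) at 136889804 to 136893065 and C1qa (ENSMUSG00000036887) at 136895917 to 136898803. C1qa read 2.41, 2.43 and 2.38 FPKM in the controls and 2.52, 2.84 and 3.42 in the mutants. The groups of C1qa did not overlap, since its controls lay close together, but the log2 fold change of 0.23 (95% interval -0.07 to 0.53) did not pass (limma adjusted p = 0.888). C1qb read 3.02, 2.35 and 1.64 against 2.82, 3.29 and 2.26, and C1qc 2.70, 2.29 and 2.40 against 2.32, 3.27 and 2.48. In both, control 1 lay above at least 1 mutant, and mutant 2 was the highest library.

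Promoter windows were searched for a PU.1 motif, and a few are shown because they hold the full form of the motif searched. RefSeq (GRCm38.p6) windows of 300 bases, 250 before and 50 after a transcript start, were at hand for 25 of the 33 members, as 28 windows; Tyrobp, C1qa, Csf1r, Cd14, Selplg, Spi1, Gpr34 and Tmem119 had none. The letters GAGGAAGT, a PU.1 core, were searched on both strands. They stood in 4 of the 28 windows (14.3%) and in 3.2% of all 32851 windows. Shorter forms within those letters, GAGGAAG and AGGAAGT, stood in 46.4% and 39.3% of member windows, against 13.6% and 9.35% of all; both overlap the full form. TATAAA stood in 17.9%, against 13.6%. A match is a description of letters and not evidence of binding. The 4 windows with the full form are those of C1qc, the protease gene Ctss, the tetraspanin gene Cd53 and Apbb1ip, which links RAP1 signalling to integrins. Each is written 5′ to 3′ along its gene with the motif in capitals, which in all 4 is read on the opposite strand as ACTTCCTC.
C1qc, chr4:136892865-136893164, minus strand: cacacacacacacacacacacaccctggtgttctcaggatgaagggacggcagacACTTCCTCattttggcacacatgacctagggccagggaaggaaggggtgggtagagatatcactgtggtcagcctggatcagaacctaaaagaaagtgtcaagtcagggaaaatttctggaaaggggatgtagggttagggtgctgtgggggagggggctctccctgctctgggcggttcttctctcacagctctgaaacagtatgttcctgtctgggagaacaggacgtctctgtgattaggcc
Ctss, chr3:95526536-95526835, plus strand: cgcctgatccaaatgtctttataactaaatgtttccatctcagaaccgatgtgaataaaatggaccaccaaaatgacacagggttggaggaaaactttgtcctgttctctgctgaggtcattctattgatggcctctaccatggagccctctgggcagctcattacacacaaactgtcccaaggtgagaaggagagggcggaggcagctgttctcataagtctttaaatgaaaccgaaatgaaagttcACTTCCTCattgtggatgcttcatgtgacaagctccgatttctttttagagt
Cd53, chr3:106790100-106790399, minus strand: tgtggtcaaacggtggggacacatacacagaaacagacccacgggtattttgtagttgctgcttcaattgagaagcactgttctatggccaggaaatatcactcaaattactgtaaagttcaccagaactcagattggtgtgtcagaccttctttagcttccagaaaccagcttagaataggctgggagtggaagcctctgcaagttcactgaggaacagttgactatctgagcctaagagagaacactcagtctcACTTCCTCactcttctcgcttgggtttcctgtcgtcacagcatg
Apbb1ip, chr2:22774077-22774376, plus strand: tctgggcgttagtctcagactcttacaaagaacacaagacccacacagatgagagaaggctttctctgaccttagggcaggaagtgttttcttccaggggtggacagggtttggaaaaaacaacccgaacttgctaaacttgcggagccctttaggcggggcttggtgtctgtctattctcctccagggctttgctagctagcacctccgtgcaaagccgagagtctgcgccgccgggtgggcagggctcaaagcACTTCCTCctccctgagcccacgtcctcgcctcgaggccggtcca
Counted from 1 at the first base of the window, the capitals cover bases 249 to 256 in Ctss, 257 to 264 in Cd53 and 256 to 263 in Apbb1ip, that is, at or just past the transcript start after base 250. In C1qc they cover bases 56 to 63, well before it. The expression of these 4 genes did not pass the test: their log2 fold changes were 0.10, 0.21, 0.22 and 0.23.

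Among the receptor genes for growth factors and chemokines, Csf1r and Cx3cr1 had the most fragments of all members in their lowest library, and Csf3r had few. Csf1r (ENSMUSG00000024621; chromosome 18, 61100598 to 61132149), the receptor for CSF1 and IL-34, read 2.87, 2.90 and 2.55 FPKM against 2.60, 2.91 and 3.20. Its log2 fold change was 0.06 with a 95% interval of -0.22 to 0.33, from 173 to 235 fragments per library, and the groups overlapped. Hmgxb3, with up to 1122 fragments, overlaps Csf1r on the other strand. Cx3cr1 (ENSMUSG00000052336; chromosome 9, 119901616 to 120069879), the receptor for the neuronal chemokine fractalkine, read 2.49, 2.50 and 2.28 against 2.65, 3.15 and 2.80. All mutants of Cx3cr1 lay above all controls in FPKM, while on scaled counts the groups overlapped; the log2 fold change was 0.20 (-0.05 to 0.45; limma adjusted p = 0.884). The annotated span of Cx3cr1 covers Wdr48, Gorasp1, Ttc21a, Csrnp1 and Xirp1. Since use of strand is not given in the sources used here, fragments of these could not be told apart where exons overlap. Csf3r, the receptor for G-CSF and a gene of neutrophils too, lay under the filter at 0.384, 0.517 and 0.314 against 0.293, 0.220 and 0.342.

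A list of 9 genes for signals that reach microglia holds the ligand genes of Csf1r and Cx3cr1 among others. It had no gene with an unadjusted limma p under 0.05 and a median log2 fold change of 0.07. Cd200, a neuronal ligand that restrains microglia, read 99.8, 111 and 106 FPKM against 100.2, 102 and 91.8. Csf1 read 0.777, 0.698 and 0.876 FPKM in the controls and 0.905, 0.911 and 1.07 in the mutants, and its groups did not overlap in FPKM (5.33% of all genes were higher without overlap) but did on scaled counts. Il34 read 1.05, 1.84 and 1.18 against 1.76, 0.745 and 2.12. Cx3cl1, which encodes fractalkine, was far higher, at 21.8, 19.6 and 19.6 against 22.6, 23.8 and 17.9. Il34 and Cx3cl1 overlapped between the groups. Among 10 genes downstream of CSF1R and TREM2, such as the kinase gene Syk, 6 were tested on FPKM, with 5 estimates above 0 and a median of 0.04, and 8 on scaled counts, with 4 above 0; Hcst, the adaptor gene related to Tyrobp, was at 0 in every library. Receptors and partners of these signals, 7 of 8 tested, had a median of 0.03 on FPKM and 0.04 on scaled counts. On scaled counts 1 was lower at an unadjusted limma p under 0.05, against 3.19% of all genes. There 1 was lower without overlap, against 6.49%, and 0 passed after adjustment. Of complement genes beyond C1q only 2 of 9 were tested on FPKM, with a median of 0.09 (-0.05 to 0.23). On scaled counts 3 were tested, with a median of 0.47 (-0.16 to 0.66), so the medians cover different sets of genes. Other oxidase subunits gave 0.09 on FPKM, with 2 of 4 tested, and 0.21 on scaled counts, with 3.

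Among TREM2, TYROBP and the Fc receptors, the 5 genes summed to 6.28, 7.82 and 6.22 FPKM in the controls and 8.06, 9.26 and 10.6 in the mutants, without overlap. Tyrobp (ENSMUSG00000030579, chromosome 7, 30413760 to 30417585), the signalling adaptor, was the highest of the 5 in every library. It read 2.62, 3.72 and 3.36 against 4.23, 4.05 and 6.79. All 3 mutants of Tyrobp were above the controls, with mutant 3 well above the rest, on 15 to 36 fragments per library. Its log2 fold change of 0.54 (95% interval -0.01 to 1.09) had an unadjusted p of 0.0533 and a limma adjusted p of 0.858. Trem2 (ENSMUSG00000023992; chromosome 17, 48346401 to 48354147), the lipid-sensing receptor that signals through TYROBP, read 0.688, 1.17 and 0.734 against 1.02, 1.22 and 1.26. Control 2 lay among the mutants for Trem2, though on scaled counts all mutants were higher. Fcer1g, the common signalling chain of Fc receptors, read 1.38, 1.13 and 0.881 against 1.39, 2.13 and 1.01, and Fcgr3, a low-affinity IgG receptor of a family with close relatives, 1.47, 1.48 and 1.03 against 1.03, 1.71 and 1.26. Fcgr3 had the estimate closest to 0 of all tested members (0.00, interval -0.48 to 0.49). Fcgr1, the high-affinity IgG receptor, rested on 6 to 10 fragments per library.

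The 6 other surface and secreted markers summed to 4.42, 4.38 and 3.86 FPKM in the controls and 5.35, 5.72 and 5.25 in the mutants, without overlap, and 4 of the 5 tested had an estimate above 0. Gpr34 (chromosome X, 13632089 to 13640858), a receptor for lysophosphatidylserine that lies within Cask on the other strand, read 0.777, 1.20 and 0.729 FPKM against 2.27, 1.53 and 0.736. Mutants 1 and 2 were high and mutant 3 was at the level of the lowest control, so its interval was wide (log2 fold change 0.46, -0.35 to 1.27). Fcrls, an Fc receptor-like gene, read 1.24, 1.51 and 0.620 against 1.03, 1.23 and 1.83. Tmem119, a microglial marker that matures after birth, was low and even, at 0.668, 0.593 and 0.649 against 0.552, 0.689 and 0.735 (log2 fold change 0.02, -0.34 to 0.39). Siglech read 0.817, 0.464 and 0.661 against 0.468, 0.637 and 0.528, and Olfml3, a secreted protein gene under the filter, 0.433, 0.207 and 0.266 against 0.278, 0.470 and 0.633. In Siglech the sign of the estimate differed between the scales, -0.13 on FPKM and 0.18 on scaled counts.

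The 2 transcription factor genes had estimates of opposite sign, and neither passed. Irf8 (ENSMUSG00000041515; chromosome 8, 120736358 to 120756694), which acts with PU.1 in myeloid cells, read 1.58, 0.897 and 0.927 FPKM against 0.815, 0.682 and 0.701. It was the only member whose mutants all lay below the controls, and control 1 stood high. Its log2 fold change was -0.38 on FPKM (unadjusted p = 0.106) and -0.55 on scaled counts (unadjusted p = 0.0420; limma adjusted p = 0.734). Gm20388, a gene model on the same strand with up to 850 fragments, overlaps Irf8 and, on the other strand, Cyba, so the division of fragments among them is uncertain. Spi1 (ENSMUSG00000002111; chromosome 2, 91082390 to 91115756) read 0.384, 0.437 and 0.148 against 0.536, 0.456 and 0.704, on 5 to 15 fragments. Its groups did not overlap in FPKM but did on scaled counts.

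The 5 adhesion and signalling genes of leukocytes summed to 6.36, 7.57 and 12.3 FPKM against 8.88, 8.39 and 8.10, and the 3 tested had a median log2 fold change of 0.22. Aif1 (ENSMUSG00000024397; chromosome 17, 35170991 to 35176068) read 4.47, 4.93 and 10.8 FPKM against 6.73, 5.95 and 5.41. Control 3 was above every other library, with 113 fragments against 53 to 82, and it set the sign: the log2 fold change was -0.05 over all libraries and 0.32 without control 3. Itgam, the integrin subunit of CD11b, varied little, at 0.439, 0.378 and 0.447 against 0.433, 0.462 and 0.472. Cd53 read 0.861, 1.33 and 0.647 against 1.02, 1.14 and 1.31, Apbb1ip 0.440, 0.579 and 0.309 against 0.454, 0.639 and 0.714, and Ptprc, which encodes CD45, 0.157, 0.345 and 0.119 against 0.245, 0.203 and 0.198. All of these overlapped between the groups.

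The lysosomal genes held the member with the largest estimate. Lyz2 (ENSMUSG00000069516; chromosome 10, 117277331 to 117282321), the lysozyme of macrophages, read 0.442, 0.431 and 0.318 FPKM against 0.499, 1.08 and 1.12. Mutants 2 and 3 were above all controls by a wide margin and mutant 1 by a small one, on 9, 9 and 6 fragments against 11, 24 and 21. The means were 0.397 ± 0.0685 and 0.900 ± 0.348 (SD, n = 3 each), the log2 fold change 0.61 ± 0.24 (SE) and the limma adjusted p 0.858. A close copy, Lyz1, could share its reads. Cd68 read 3.68, 3.48 and 2.88 against 3.90, 4.33 and 2.99; Ctss, which encodes cathepsin S, 3.37, 3.06 and 2.01 against 3.001, 3.59 and 3.24; and Laptm5, a lysosomal membrane protein gene of blood-derived cells, 3.25, 3.29 and 2.30 against 2.96, 3.46 and 3.66. In each of these 3, control 3 was the lowest library and the groups overlapped.

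Among the pattern recognition genes, Ly86, which encodes MD-1, read 0.821, 1.27 and 1.26 FPKM against 1.26, 1.62 and 0.887. Mrc1, the mannose receptor of border macrophages, read 0.138, 0.366 and 0.137 against 0.343, 0.310 and 0.329, with control 2 above the mutants. For Mrc1 the scaled counts gave a log2 fold change of 0.79 (95% interval 0.07 to 1.51; limma adjusted p = 0.710). Cd14, the lipopolysaccharide co-receptor, had 2, 1 and 0 fragments against 2, 4 and 4, too few for a fold change. Of the NADPH oxidase subunits, Cyba read 2.97, 2.999 and 1.56 against 2.14, 2.94 and 3.02, and Cybb had at most 6 fragments.

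FPKM and scaled counts did not always move together, and this mattered for several members. In 8 of the 33 genes the FPKM assigned to a given number of scaled counts differed by more than 1.5 times between libraries. Selplg, the ligand of P-selectin, was the most uneven: 1000 scaled counts gave 25.6, 24.8 and 74.8 FPKM in the controls and 24.9, 37.5 and 36.4 in the mutants, a range of 3.02 times. Its FPKM of 0.940 in control 3 thus rested on 11 fragments, whereas 0.485 in control 1 rested on 18. By FPKM, Selplg read 0.485, 0.410 and 0.940 against 0.753, 1.16 and 0.797 and overlapped. By fragments it had 18, 16 and 11 against 31, 32 and 19, and the log2 fold change on scaled counts was 0.76, against 0.36 on FPKM (unadjusted p = 0.0201 and 0.189; limma adjusted p = 0.657 and 0.888). For Trem2 the range was 2.31 times, for Fcgr1 2.26, for Fcrls 2.01 and for Cd68 1.60. Cd68 had 46, 38 and 40 fragments against 67, 64 and 47, without overlap on scaled counts (log2 fold change 0.44, against 0.13 on FPKM). Csf1r, Lyz2 and Tyrobp kept a nearly fixed ratio, within 1.01, 1.01 and 1.02 times.

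**Figure D3:**
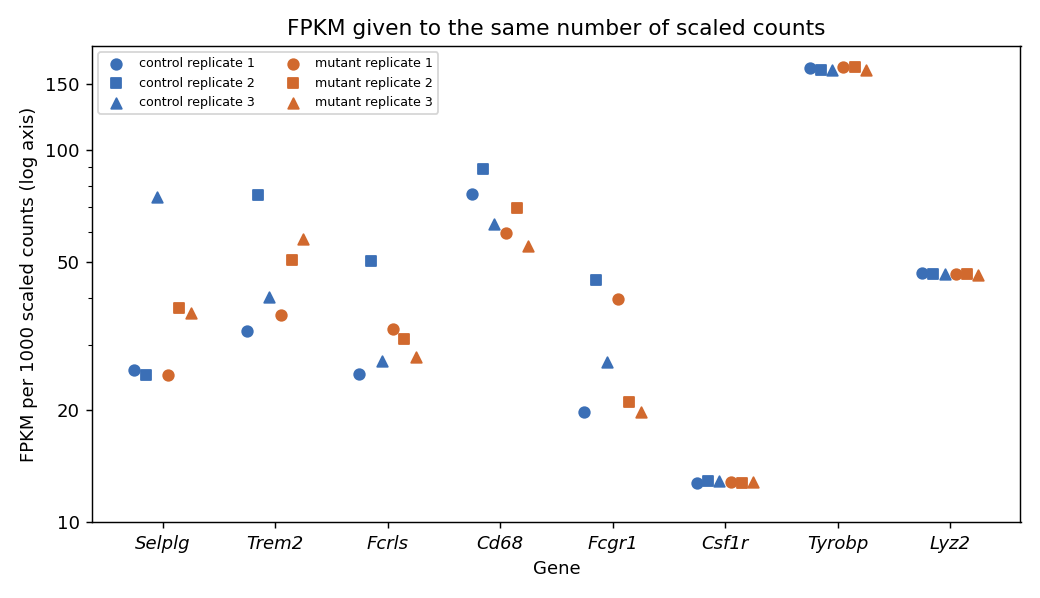
FPKM that 1000 scaled counts correspond to, on a log axis, in each library for 5 members with an uneven ratio (Selplg, Trem2, Fcrls, Cd68 and Fcgr1) and 3 with a fixed one (Csf1r, Tyrobp and Lyz2). Selplg in control replicate 3 lies at 74.8, against 24.8 to 37.5 in the other libraries.

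The members were unevenly placed across libraries. Control 3 was the lowest library for 15 of the 24 tested members (62.5%), against 15.0% of all genes, and for 17 of 30 (56.7%) on scaled counts, against 15.0%. The median deviation of the members from their own mean was -0.25 on the log2 scale in control 3, 0.02 and -0.01 in controls 1 and 2, and -0.03, 0.19 and 0.09 in mutants 1 to 3. Mutant 3 was the highest library for 10 members and mutant 2 for 9. Mutant 1 therefore lay close to controls 1 and 2, and the 2 groups were not separated by this measure. Control 3 was also the library with Y-linked transcripts: Ddx3y read 16.7 FPKM there and at most 0.0335 elsewhere, so sex and that library cannot be told apart.

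**Figure D4:**
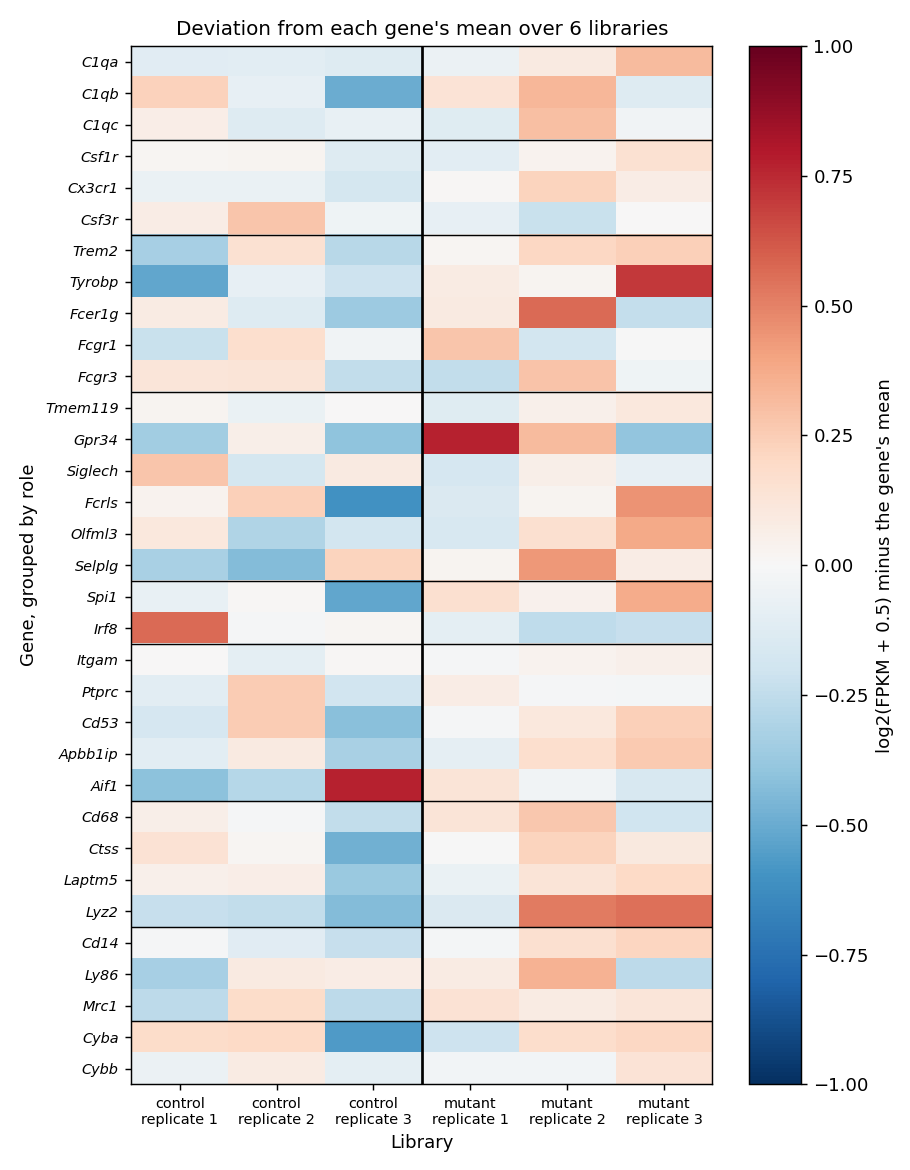
Deviation of each gene from its own mean over the 6 libraries, in log2(FPKM + 0.5), with genes in rows grouped by role (black lines) and libraries in columns (red, above the mean; blue, below). Control replicate 3 is blue in most rows; the exceptions are Aif1, Selplg, Tmem119, Siglech, Irf8, Itgam and Ly86. Its strongest red cell is Aif1, and mutant replicates 2 and 3 are mostly red.

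A further list of 20 microglia genes was more even. Of its 18 tested genes, 8 estimates were above 0 with a median of -0.04 on FPKM, and 10 with a median of 0.01 on scaled counts; on both scales 0 passed in limma or had an unadjusted p under 0.05; the difference from the members was not tested. Several of these genes, such as Mef2c and Sparc, are also expressed by neurons, astrocytes or vessel cells. P2ry12, the purinergic receptor that defines resting microglia, read 6.40, 7.18 and 7.38 FPKM against 7.48, 7.11 and 5.37, with mutant 3 the lowest. Of 12 genes of border macrophages, only Dab2 and Stab1 passed the filter, and the 12 summed to between 4.65 and 6.19 FPKM in controls and between 5.85 and 6.83 in mutants. Pf4, a chemokine gene of these cells, had at most 4 fragments.

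Markers of other cells that lie near macrophages were read beside the members, and their part in the results was not tested. Red blood cell genes (8) summed to 403, 647 and 546 FPKM against 542, 958 and 549.5, highest in mutant 2. Meningeal fibroblast genes (8) summed to 3.58, 3.74 and 3.23 against 5.13, 4.37 and 5.43, without overlap, and endothelial genes (8) to 51.4, 41.3 and 43.8 against 45.5, 47.4 and 50.1. The 13 monocyte and neutrophil genes summed to 2.81, 2.52 and 2.96 against 3.85, 3.54 and 5.88. Most of that difference lay in S100a9, a calprotectin subunit of neutrophils, which had 4, 3 and 2 fragments against 10 in each mutant (log2 fold change 1.12, limma adjusted p = 0.349), while Elane was at 0 in 5 libraries and Ccr2 in 3. The interferon list had 0 of 5 tested estimates above 0 on FPKM, against 49.9% of all genes, and a median of -0.52. Control 2 was the highest library for all 5 on FPKM and for 4 of the 5 on scaled counts. Irf8, which was lower in the mutants but did not pass, was highest in control 1, and its relation to this list was not tested.

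Genes of activated or axon tract microglia, 12 in all, had 6 tested on FPKM, with 5 estimates above 0, against 49.9% of all genes. Spp1 alone was higher without overlap, against 5.33%. On scaled counts 8 were tested, with 6 above 0, against 49.6%, and 2 higher without overlap, against 5.46%. At an unadjusted limma p under 0.05, 0 were higher on FPKM, against 2.65% of all genes, and 2 on scaled counts, against 3.24%. Without the filter on level 3 were, against 2.43%, and on each scale 0 were lower. Without the filter on level, 10 of the 12 were above 0, against 50.4% of all genes, and 5 were higher without overlap, against 4.59%, some of them on a few fragments. This lean was not particular to the list. In the same fit all 8 meningeal fibroblast genes were above 0, with 3 higher without overlap. Border macrophage genes had 9 of 12 above 0 and inflammatory genes 9 of 11. The further microglia genes had 9 of 20, complement genes beyond C1q 4 of 9 and interferon genes 2 of 9. Spp1, which encodes osteopontin, read 0.997, 1.78 and 1.36 FPKM against 2.01, 6.12 and 1.98, with mutant 2 far above the rest (161 fragments, against 24 to 52). Gpnmb read 0.198, 0.267 and 0.185 against 0.287, 0.639 and 0.384. Clec7a had 1, 2 and 1 fragments against 5, 6 and 5. None passed with limma (adjusted p = 0.874 for Spp1 on FPKM and 0.681 on scaled counts). Of 12 inflammatory genes only Nfkbia passed the filter, and Tnf, Il1b and Il6 had at most 2 fragments in any library.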

How the data were processed

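Total RNA from 6 striatum libraries was sequenced. Per the submitters' processing notes, reads were handled with TopHat and Cufflinks 2.1.1 on GRCm38.p4; annotation release, use of strand and the treatment of multi-mapped reads were not given in the sources used here. The authors deposited FPKM values and count columns per gene. The deposited count columns were a normalized signal: whole fragments times 1 factor per library, called scaled counts here; of the values above 0.01, 97.9% came within 0.1 of whole multiples. Gene names and positions came from GENCODE M21.

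The main test was limma 3.58.1 (R 4.3.3) with a mean-variance trend on log2(FPKM + 0.5), for the 16666 genes whose mean FPKM reached 0.5, two-sided, with Benjamini-Hochberg adjustment over all genes and a threshold of 0.05. Fold changes on this scale understate those of low genes. Scaled counts were tested as log2(value + 1), for the 16125 genes with a mean of at least 10. Only the limma fit on FPKM was tested on simulated data. Alternatives were other pseudocounts and filters, quantile and median-ratio scaling, a robust fit, a replicate block, and each library left out; the limit on mean scaled counts within the FPKM fit, and leaving out libraries on scaled counts, were added after seeing the data. Named were all members, Sp9, up to 3 genes of each other list with the smallest p, its highest gene and defining markers; Il34, Cx3cl1, Hcst, P2ry12, Gpnmb, Tnf and Il1b fall outside this rule and were chosen after their values were seen. A gene that the rule would name is not reported here. The members and the lists were chosen with earlier results of these data known. No count model was fitted between the groups, since the deposited columns are not raw counts. The Wilson intervals used the fragments worked out from those columns.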

Additional observations from a re-analysis of the deposited data

How the results depend on the processing

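No member had an adjusted p under 0.05 in limma in any alternative, and the lowest adjusted p of any member was 0.232. Of 563 single-member alternatives, 37 changed the sign of an estimate, in 10 members, none of them called. The number of genes called was 10 over all genes, 23 on scaled counts, 12 to 23 when a library was left out, and 8 to 32 when one was left out on scaled counts (24 without control 1, 17 without mutant 2). Members higher at an unadjusted p under 0.05 numbered 1, but 2 without the filter, 2 with the robust fit, 2 with the limit on mean scaled counts, 4 on scaled counts, 0 with a mean FPKM of at least 1 and 0 with quantile scaling; leaving out a library gave 0 to 2, and 0 to 3 on scaled counts. Members lower numbered 0, but 1 on scaled counts, and 0 to 1 there when a library was left out. The log2 fold change of Sp9 passed at -1.11 with a pseudocount of 0.1, at -1.08 with a mean FPKM of at least 1, with the robust fit and with the limit on mean scaled counts, and at -1.32 on scaled counts; it was -1.16 to -1.02 with a library left out and -1.46 to -1.23 on scaled counts (-1.28 without control 1, -1.38 without control 3 and -1.28 without mutant 1). The replicate block, for which the numbers gave no pairing (correlations of 0.0025, 0.037 and 0.043 between libraries of the same number, and not every library closest to its own number), called 5 genes and 0 members higher at an unadjusted p under 0.05. Depth was one limit: 7 members had a library with fewer than 10 fragments.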
